A study of Mus musculus with 12 samples.

Results

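The genes described are 7 genes of the liver X receptor (LXR) and cholesterol efflux pathway, out of 45777 genes in the deposited table: the receptors Nr1h2 and Nr1h3, the transporters Abca1 and Abcg1, and the target genes Mylip, Srebf1 and Lpcat3. They were chosen by symbol, with the values of these same libraries already known, so their levels and fold changes in the 4 groups are given as a description and carry no test. All 7 were found in the table and all 7 were above 0 in at least 3 libraries. Mouse splenic CD4+ T cells, labelled wild type Balb/c at 7 weeks of age, were stimulated with anti-CD3 (0.5 ug/mL) for 3 days. The study's methods name B6 mice for the same experiment, so the strain is given here as labelled. Every group received anti-CD3. It was given alone, with Lactobacillus acidophilus (a probiotic lactic acid bacterium), with FK506 (tacrolimus, an inhibitor of the phosphatase calcineurin) or with both (the combination). For cultures of spleen and blood cells the study's methods describe L. acidophilus inactivated by heat. They do not repeat this for the RNA-seq cells. Each group had 3 RNA-seq libraries, numbered 1 to 3 in the labels, with 45416397 to 64658165 gene counts each. Nothing in the labels ties a library to a separate animal or culture, so the spread between libraries may be technical.

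LXRs are nuclear receptors that bind oxysterols, the oxidised forms of cholesterol. They pair with retinoid X receptors (RXRs) on direct repeats of a short DNA element and raise the transcription of genes that carry cholesterol out of the cell and of genes of fatty acid synthesis. The opposing arm is the SREBP2 pathway, which raises sterol synthesis and uptake when sterols are low. Activated T cells need sterols for new membranes, and LXR activity is known to restrain their proliferation.

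The start regions of 2 members are shown first, because they hold a sequence of the kind LXRs are known to bind. RefSeq promoter windows (build GRCm38.p6, 250 bases before to 50 after each start) were at hand for 6 of the 7 members, with 9 windows in all. Both strands were searched for the strict direct repeat, which is 2 copies of AGGTCA with 4 bases between them, for a relaxed direct repeat, which is 2 copies of GGTNA with 5 bases between them, and for the single half-site AGGTCA. Every strict match is also a relaxed match, and holds the half-site. The strict repeat occurred in 0.0152% of 32851 windows of 300 bases, the relaxed repeat in 0.718% and the half-site in 16.3%. In the members' windows there was no strict repeat and no half-site, and 1 relaxed repeat each for Abca1 and for a start of Srebf1. The 250 bases before these starts follow on the strand of the gene, with the relaxed repeat in capitals. The repeat lies on the opposite strand, where it reads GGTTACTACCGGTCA in Abca1 and GGTTACTGGCGGTCA in Srebf1.
Abca1, chr4:53159896-53160145, minus strand: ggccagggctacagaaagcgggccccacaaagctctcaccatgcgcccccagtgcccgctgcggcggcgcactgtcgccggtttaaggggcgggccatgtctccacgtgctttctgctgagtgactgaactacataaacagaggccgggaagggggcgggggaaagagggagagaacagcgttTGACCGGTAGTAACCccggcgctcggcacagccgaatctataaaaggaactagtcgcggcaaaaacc
Srebf1, chr11:60210472-60210721, minus strand: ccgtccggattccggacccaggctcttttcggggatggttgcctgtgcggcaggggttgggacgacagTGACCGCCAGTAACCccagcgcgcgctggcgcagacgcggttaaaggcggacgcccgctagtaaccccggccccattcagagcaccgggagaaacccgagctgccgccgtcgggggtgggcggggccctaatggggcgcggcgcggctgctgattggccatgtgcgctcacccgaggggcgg
The repeat covers positions -67 to -53 of the Abca1 window and positions -182 to -168 of the Srebf1 window, counted from the start at 0. The matches are descriptions of the sequence. No binding was measured in these cells.

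In the anti-CD3 group the 7 genes fell into an abundant and a scarce set. FPKM (fragments scaled to transcript length and library depth) corrects for transcript length, so levels can be set side by side, as far as the lengths behind it hold. The ratio of FPKM to depth-scaled counts differed between libraries by a factor of 1.04 to 1.17 for the members and 1.53 for Apoe. Srebf1 stood at 48.6 ± 3.76 FPKM (mean ± SD, n = 3), Nr1h2 at 44.9 ± 14.1 and Lpcat3 at 32.3 ± 4.12. The ranges of Nr1h2 overlapped with those of both other genes. Abcg1 followed at 2.97 ± 0.36, Abca1 at 1.04 ± 0.47, Mylip at 0.63 ± 0.16 and Nr1h3 at 0.26 ± 0.052 FPKM. Abca1 and Mylip overlapped, and Nr1h3 lay below every other member in all 3 libraries. In the combination the order was Nr1h2 (53.4 ± 1.56), Srebf1 (34.0 ± 0.53), Lpcat3 (17.8 ± 0.81), Abcg1 (7.77 ± 1.26), Mylip (5.40 ± 1.06), Abca1 (1.67 ± 0.075) and Nr1h3 (0.93 ± 0.64). Mylip had moved above Abca1, and Nr1h3 in library 1 reached the range of Abca1.

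**Figure D1:**
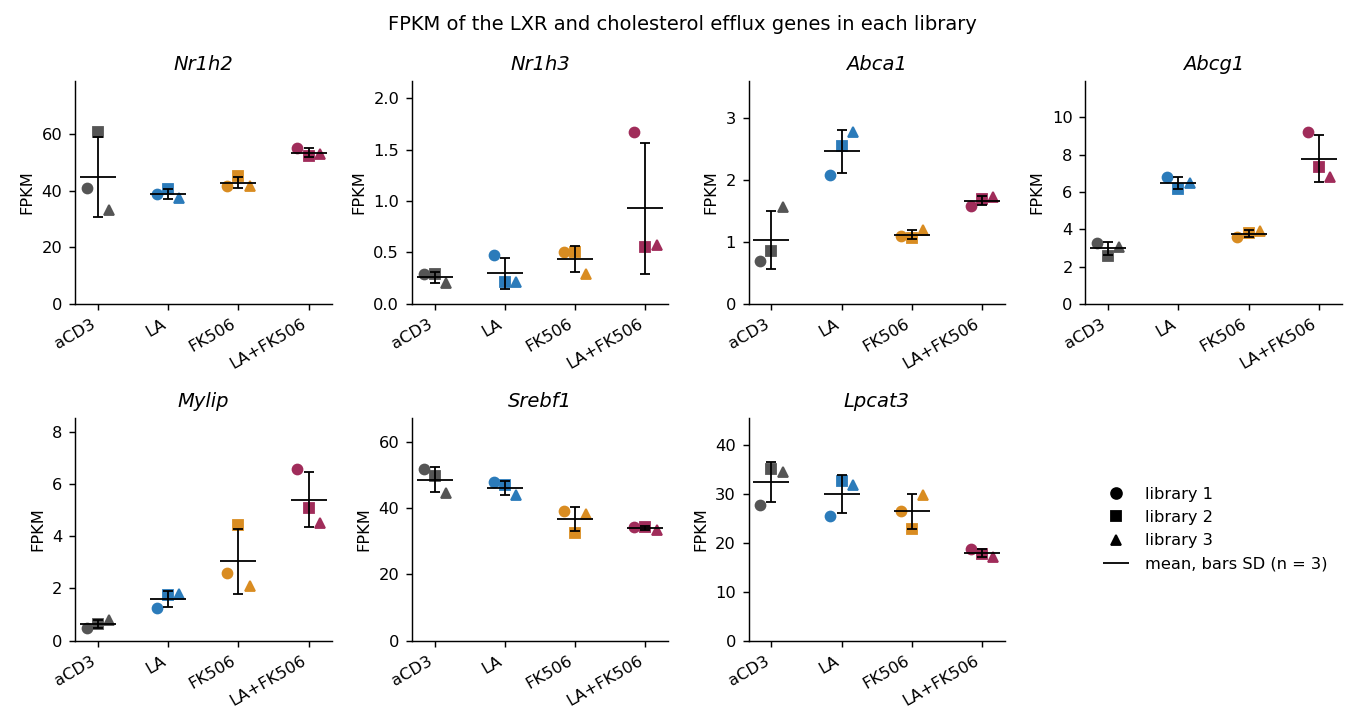
FPKM of each member in each of the 12 libraries; symbols mark the library number, horizontal lines the group mean and bars the SD (n = 3), and each vertical axis starts at 0. Abcg1 is high in both groups that received L. acidophilus, Mylip is higher in each treated group, and Nr1h3 in the combination is set by library 1 (1.67 FPKM against 0.55 and 0.58).

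A gene is described as called where the edgeR quasi-likelihood test, adjusted over 23585 genes, gave a p below 0.05 and the level differed 2-fold or more. In the combination against anti-CD3, Abcg1, Nr1h3 and Mylip were called higher and Lpcat3 lower, which is 4 of 7 members. Over all genes tested, 13.8% were called higher and 10.8% lower in that comparison. With FK506 alone Mylip was the single member called, against 6.44% of all genes called higher and 4.12% lower. With L. acidophilus alone Abcg1 was the single member called, against 0.157% higher and 0.0297% lower. In the combination against L. acidophilus, Nr1h3 and Mylip were called higher, against 9.93% of all genes higher and 6.64% lower. In the combination against FK506 no member was called by edgeR, against 3.84% of all genes called higher and 3.6% lower; at an unadjusted p under 0.05 there were 4 of 7 members and 32.8% of all genes. These comparisons share their control libraries, and the members were chosen with them known, so nothing is read from the counts. The median log2 fold change of the 7 members in the combination against anti-CD3 was 0.49, beside 0.02 for all genes tested.

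**Figure D2:**
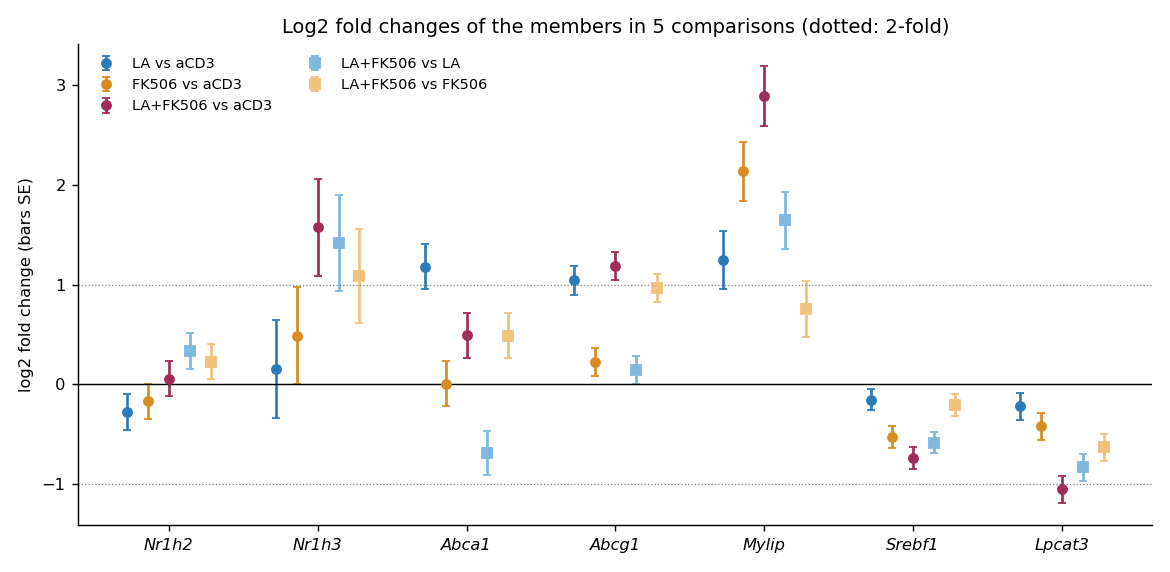
Log2 fold changes (edgeR, bars SE) of the 7 members in 5 comparisons, circles against anti-CD3 and squares for the combination against each single treatment; dotted lines mark a 2-fold change. Mylip shows the largest of these changes at 2.89 on the log2 scale, and Lpcat3 is below 0 in all 5 comparisons.

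The receptors differed in level and in pattern. Nr1h2 encodes LXR beta, the form found in most tissues (chr7:44549616-44553968, minus strand, RefSeq GRCm38.p6). It stood at 40.8, 60.5 and 33.3 FPKM in the 3 anti-CD3 libraries, at 38.6, 40.6 and 37.2 with L. acidophilus, at 41.7, 45.03 and 41.5 with FK506, and at 55.1, 52.0 and 53.1 in the combination. The combination lay above both single treatments without overlap, but inside the range of anti-CD3 because library 2 of that group was high. The log2 fold change of Nr1h2 against anti-CD3 was 0.06 ± 0.18 (SE) in the combination, and moved to 0.34 without anti-CD3 library 2 and to -0.14 without anti-CD3 library 3, so no direction is given for it. Against FK506 it was 0.23 ± 0.18 and against L. acidophilus 0.33 ± 0.18.

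Nr1h3 encodes LXR alpha, the form typical of macrophages, liver and fat (chr2:91184061-91202829, minus strand). It rested on few reads, 24 to 41 counts per library in anti-CD3, 24 to 68 in the L. acidophilus group, 29 to 64 in the FK506 group and 56 to 215 in the combination. The FPKM were 0.29, 0.29 and 0.20 in anti-CD3, 0.47, 0.21 and 0.21 with L. acidophilus, 0.51, 0.51 and 0.29 with FK506, and 1.67, 0.55 and 0.58 in the combination. Library 1 of the combination was about 3 times the other two, and the combination did not overlap with any other group. Against anti-CD3 its log2 fold change was 1.57 ± 0.48, and 0.86 ± 0.42 without that library, where Nr1h3 was no longer called. The call was also lost without anti-CD3 library 3, at 1.40 on the log2 scale, and with limma on log2(FPKM + 1), where the difference was 0.57. Against L. acidophilus the change was 1.42 ± 0.48, and 0.71 ± 0.42 without library 1 of the combination, again no longer called; that call was lost too without L. acidophilus library 2 (1.23), without L. acidophilus library 3 (1.22) and without FK506 library 2 (1.42), in the fit of the 6 libraries compared (1.42) and with limma on log2(FPKM + 1) (0.53). The ratio of Nr1h2 to Nr1h3 in FPKM ran from 141 to 210 in the anti-CD3 libraries and from 33.0 to 94.0 in the combination.

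The transporters stood higher in both groups given L. acidophilus than in anti-CD3. Abca1 encodes the pump that loads cholesterol and phospholipid onto apolipoprotein A-I (chr4:53030789-53159988, minus strand). It stood at 0.69, 0.85 and 1.57 FPKM in anti-CD3, at 2.08, 2.54 and 2.77 with L. acidophilus, at 1.09, 1.05 and 1.20 with FK506, and at 1.58, 1.69 and 1.72 in the combination. L. acidophilus was the highest group and did not overlap with any other, while anti-CD3 and FK506 overlapped. The combination lay between, above FK506 in all 3 libraries and just above the highest anti-CD3 library. With L. acidophilus its log2 fold change was 1.18 ± 0.23, with a mean FPKM 2.38 times that of anti-CD3, and Abca1 was not called in that fit. It was called with the replicate number as a block (1.22 ± 0.18), with filterByExpr (1.18), with no filter on low counts (1.19), and without anti-CD3 library 3 (1.55 ± 0.16). In the combination the change against anti-CD3 was 0.49 ± 0.22, and it ran from 0.28 without anti-CD3 library 1 to 0.86 without anti-CD3 library 3. The combination was lower than L. acidophilus by a log2 fold change of -0.69 ± 0.22.

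Abcg1 encodes the half-transporter that passes cholesterol to high-density lipoprotein (chr17:31057694-31117984, plus strand). Its FPKM were 3.27, 2.57 and 3.07 in anti-CD3, 6.79, 6.14 and 6.48 with L. acidophilus, 3.57, 3.78 and 3.93 with FK506, and 9.19, 7.33 and 6.79 in the combination. No pair of groups overlapped, although the top L. acidophilus library and the lowest combination library were both at 6.79 when rounded. Its log2 fold change against anti-CD3 was 1.04 ± 0.14 with L. acidophilus, 0.22 ± 0.14 with FK506 and 1.19 ± 0.14 in the combination. The combination against FK506 stood at 0.96 ± 0.14, and against L. acidophilus at 0.14 ± 0.14, which turned to -0.02 without library 1 of the combination. The value against FK506 passed the 2-fold limit, and was called, without FK506 library 3 (1.01), combination library 2 (1.01) or combination library 3 (1.06), and also without TMM factors (1.05) and with limma on log2(FPKM + 0.1) (1.02). The ratio of Abcg1 to Abca1 in FPKM ran from 2.34 to 3.26 with L. acidophilus and from 3.94 to 5.81 in the combination.

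The calls with L. acidophilus alone rest on small counts of genes. In that comparison 44 genes were called in the fit of all 12 libraries, from 1 without L. acidophilus library 1 or 2 to 169 without anti-CD3 library 3, and none of 20979 genes in the fit of the 6 libraries compared, where 2616 genes had an unadjusted p under 0.05. DESeq2 called 439 genes on the 12 libraries, and among the members it called Abca1, Abcg1 and Mylip. Same-numbered libraries deviated together in these 2 groups, so the replicate numbers paired the libraries, a pairing left out of the fit that called 44 genes. With the replicate number as a block edgeR called 69 genes, among them Abcg1 and Abca1. Abcg1 was no longer called without anti-CD3 library 2 (0.96) or without L. acidophilus library 1 (1.01), 2 (1.08) or 3 (1.04), or with limma on log2(FPKM + 1) (0.91).

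The 3 other targets went in different directions. Mylip, also called Idol, encodes a ubiquitin ligase that limits lipoprotein uptake (chr13:45389742-45411940, plus strand). It stood at 0.48, 0.63 and 0.80 FPKM in anti-CD3, at 1.23, 1.75 and 1.80 with L. acidophilus, at 2.58, 4.44 and 2.08 with FK506, and at 6.57, 5.10 and 4.52 in the combination. The 4 groups did not overlap and ranked in that order. The log2 fold change against anti-CD3 was 1.25 ± 0.29 with L. acidophilus, which was not called, 2.14 ± 0.30 with FK506 and 2.89 ± 0.30 in the combination. The combination was also above L. acidophilus (1.64 ± 0.29), and against FK506 it stood at 0.75 ± 0.28. Without FK506 library 2, the highest of its group, the last value was 1.12 ± 0.26 and was called.

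Srebf1 encodes SREBP1, the transcription factor of fatty acid synthesis genes (chr11:60199084-60224186, minus strand). Its FPKM were 51.7, 49.6 and 44.4 in anti-CD3, 47.7, 46.8 and 43.8 with L. acidophilus, 39.2, 32.6 and 38.3 with FK506, and 34.3, 34.3 and 33.4 in the combination. Both groups with FK506 lay below both groups without it, with no overlap between the pairs. The log2 fold change against anti-CD3 was -0.15 ± 0.11 with L. acidophilus, -0.53 ± 0.11 with FK506 and -0.74 ± 0.11 in the combination, each smaller than 2-fold. The counts sum over all starts of Srebf1, so the start shown above is not measured apart from the others.

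Lpcat3 encodes the enzyme that places polyunsaturated fatty acids into membrane phospholipids (chr6:124663094-124704716, plus strand). It stood at 27.6, 35.0 and 34.4 FPKM in anti-CD3, at 25.5, 32.6 and 31.6 with L. acidophilus, at 26.5, 22.7 and 29.8 with FK506, and at 18.6, 17.7 and 17.0 in the combination. The combination was below every library of the other groups, which overlapped with each other. On the log2 scale Lpcat3 in the combination differed by -1.05 ± 0.14 from anti-CD3, by -0.63 ± 0.14 from FK506 and by -0.83 ± 0.14 from L. acidophilus. The value lies close to the 2-fold limit: without anti-CD3 library 2 it was -0.94, without TMM factors -0.84, and with limma -0.82 on log2(FPKM + 1) and -0.85 on log2(FPKM + 0.1), and Lpcat3 was then not called.

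For each member the effect of both agents was also set against the 2 single effects added together, on the log2 scale, as a departure from additivity. No member was called by edgeR, while over all genes tested 1.35% departed above the sum and 3% below it, with no fold limit. At an unadjusted p under 0.05 there were 1 of 7 members and 19.6% of all genes. The values were -0.69 ± 0.32 for Abca1, -0.08 ± 0.20 for Abcg1, -0.49 ± 0.40 for Mylip, -0.06 ± 0.15 for Srebf1, -0.41 ± 0.19 for Lpcat3, 0.51 ± 0.25 for Nr1h2 and 0.93 ± 0.68 for Nr1h3. Without anti-CD3 library 3 Abca1 departed by -1.06 ± 0.21 and was called, and without library 1 of the combination Nr1h3 departed by 0.22.

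Markers of other cell types moved with the same groups. The study's methods describe magnetic bead selection of CD4+ T cells from spleen, a step meant to remove macrophages and B cells. Of 10 macrophage and monocyte markers, 9 rose in the combination against anti-CD3, 8 rose with FK506 and none was called by edgeR with L. acidophilus. Their summed level was 2.78 to 4.37 FPKM in the anti-CD3 libraries, 3.94 to 8.34 FPKM where L. acidophilus was given alone, 8.69 to 23.0 with FK506 and 59.1 to 87.8 in the combination. Csf1r, Fcgr1 and C1qa were at 0 in all anti-CD3 libraries, and C1qa was at 0 in all L. acidophilus libraries too. Library 1 of the combination, where Nr1h3, Mylip and Abcg1 were highest, held the top sum of 87.8, with Adgre1 (the macrophage antigen F4/80) at 8.75 FPKM against 1.55 and 1.40, and Lyz2 (lysozyme) at 30.8 FPKM against 14.5 and 16.1. Cd14 and C1qa were also highest there. Cd68 differed less, at 27.3 FPKM against 25.4 and 26.6, as did Csf1r, at 0.92 against 0.71 and 0.83. The T cell marker sum was highest in that library too, at 1795 FPKM against 1521 and 1526. The part of macrophages and monocytes in the levels of Nr1h3, Mylip and Abcg1 in the combination was not tested. In bulk RNA, more cells of a type and more RNA per cell cannot be told apart. With L. acidophilus alone, where Mylip, Abca1 and Abcg1 were more than 2-fold above anti-CD3 in mean FPKM, none of the macrophage markers was called by edgeR, 2 had an unadjusted p under 0.05, and 9 of 10 had a log2 fold change above 0, with a median of 0.99, and Adgre1 stood at 0.027 ± 0.0080 FPKM in anti-CD3 and 0.17 ± 0.11 with L. acidophilus. Their part in these 3 genes was not tested.

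Of 10 B cell markers, 9 rose with FK506 and 5 in the combination, and none was called with L. acidophilus. Their sum was 39.1 to 63.3 FPKM in anti-CD3, 26.3 to 37.8 FPKM where L. acidophilus was given alone, 222 to 450 with FK506 and 132 to 159 in the combination, so it was highest where Mylip was second highest. Of 6 dendritic cell markers, 5 were tested, of which 2 rose in the combination and 2 with FK506. Their sum was 2.2 to 2.36 FPKM in anti-CD3, 1.92 to 2.98 FPKM in the L. acidophilus group, 2.59 to 6.17 with FK506 and 9.79 to 11.8 in the combination, with Clec9a at 0 in the first 3 groups and Siglech at 0 in the first 2. The 4 neutrophil markers summed to at most 1.95 FPKM in any library, and S100a8 was at 0 in every group; of the 2 tested, 1 fell with FK506 and in the combination. Of the 2 CD8 T cell markers, summing to 2.21 to 9.02 FPKM, Cd8a rose with FK506. None of the 6 T cell markers was called in any comparison with anti-CD3, and they summed to 1074 to 1795 FPKM, so the labelled cell type was present throughout. The part of these cells in the members' values was not tested.

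**Figure D3:**
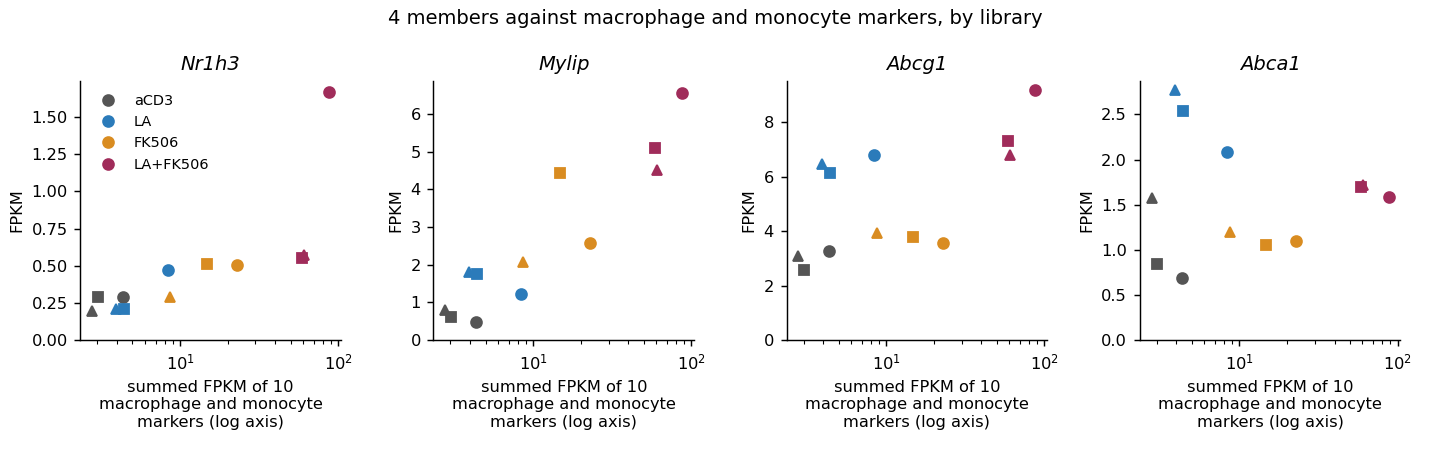
FPKM of Nr1h3, Mylip, Abcg1 and Abca1 in each library against the summed FPKM of 10 macrophage and monocyte markers (log axis); colours mark the group and symbols the library number. The combination lies apart at a sum of 59.1 to 87.8 FPKM, while the L. acidophilus libraries, with sums of 3.94 to 8.34 FPKM, hold Abcg1 at 6.14 to 6.79 FPKM.

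Genes of the wider pathway that are not members were tested, with edgeR p-values adjusted over all 23585 genes, and these lists were also written with earlier results known. The counts of each list in the combination stand beside 13.8% of all genes called higher and 10.8% lower. Of 15 other LXR target genes tested, 6 rose and 4 fell in the combination against anti-CD3, with a median log2 fold change of 1.17 beside 0.02 for all genes. At any size 8 of the 15 were above 0, so this median is the lowest value among those 8. Abcg5 and Apoc2 among the 8 rested on 10 and 17 counts, each in a single combination library. Apoe, the apolipoprotein that takes up effluxed cholesterol, rose from 3.22 ± 0.58 to 15.7 ± 0.92 FPKM (log2 1.90 ± 0.19, adjusted p = 1.9e-05). Its combination libraries stood at 16.4, 16.1 and 14.7 FPKM. Apoe, Lpl and Smpdl3a were highest in the group where the macrophage marker sum was highest, and the part of those cells in their values was not tested. Lpl, lipoprotein lipase, rose by 4.62 ± 0.44 (adjusted p = 1.6e-05) and Smpdl3a, a phosphodiesterase induced by LXR in macrophages, by 3.21 ± 0.41 (adjusted p = 9.2e-05). In contrast, the stearoyl-CoA desaturases Scd1 and Scd2 fell, Scd1 from 39.2 ± 8.76 to 3.72 ± 0.55 FPKM (log2 -3.61 ± 0.35, adjusted p = 1.8e-05) and Scd2 from 330 ± 66.7 to 22.1 ± 8.17 FPKM (log2 -4.11 ± 0.42, adjusted p = 2.5e-05). With FK506 alone 5 of the 15 rose and 2 fell, and with L. acidophilus alone none was called by edgeR.

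Among 15 receptor partners, coactivators and corepressors, 3 rose and none fell in the combination. Rxra, a partner of both LXRs that B cells and myeloid cells also express, stood at 3.90 ± 1.42 FPKM in anti-CD3, 4.08 ± 2.19 with L. acidophilus, 23.5 ± 1.54 with FK506 and 12.4 ± 3.00 in the combination. It rose with FK506 by 2.46 ± 0.34 (adjusted p = 0.00072) and in the combination by 1.46 ± 0.33 (adjusted p = 0.0039). Both Rxra and the B cell marker sum were highest with FK506 and next in the combination, and the part of B cells in Rxra was not tested. Rxrb, the more even partner, was not called, at -0.36 ± 0.14 in the combination (adjusted p = 0.055). The coregulators Nrip1 (1.45 ± 0.17, adjusted p = 5.4e-05) and Crebbp (1.17 ± 0.14, adjusted p = 6.3e-05) rose in the combination.

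Of 7 genes of oxysterol synthesis, removal and sensing, 3 rose and 2 fell in the combination. Ch25h, which makes 25-hydroxycholesterol, an LXR ligand, fell by 4.64 ± 1.44 (adjusted p = 0.021) on few reads: 4, 43 and 93 counts in the anti-CD3 libraries and 4, 0 and 2 in the combination. Library 1 of both groups held the same 4 counts, and the call was lost without anti-CD3 library 3, or without combination library 2 or 3 (adjusted p of 0.072, 0.068 and 0.061). It was also lost with limma on log2(FPKM + 1) (-0.55, adjusted p = 0.090) and on log2(FPKM + 0.1) (-1.96, adjusted p = 0.066). Gpr183, the receptor for oxysterol chemoattractants, rose with FK506 by 1.70 ± 0.23 (adjusted p = 0.00069) and in the combination by 1.26 ± 0.23 (adjusted p = 0.00098), where its call was lost without combination library 1 (0.90). Hsd3b7, which removes such oxysterols, rose by 1.01 ± 0.26 (adjusted p = 0.0074), with the call lost without anti-CD3 library 2 (0.89) or combination library 1 (0.88), and with limma on log2(FPKM + 1) (0.90).

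Of 13 genes of the SREBP pathway and sterol synthesis, 7 fell and none rose in the combination, with a median log2 fold change of -1.22. Lss, lanosterol synthase, fell by 2.59 ± 0.23 (adjusted p = 1.3e-05), Hmgcs1 by 1.59 ± 0.18 (adjusted p = 4.5e-05), Cyp51 by 1.53 ± 0.13 (adjusted p = 1.0e-05) and Sqle, squalene epoxidase, by 1.53 ± 0.12 (adjusted p = 7.4e-06). Insig1, which holds SREBPs in the endoplasmic reticulum and is itself an SREBP target, fell by 1.26 ± 0.12 (adjusted p = 1.6e-05). Srebf2, which encodes SREBP2, stood at -0.58 ± 0.094 (adjusted p = 0.00041), under the 2-fold limit. With FK506 alone 1 of the 13, Lss, fell (log2 -1.26 ± 0.22, adjusted p = 0.0028), a call lost without anti-CD3 library 1 (-0.93), and with L. acidophilus alone none was called by edgeR.

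Of 9 lipoprotein receptors and uptake genes, 3 rose and 3 fell in the combination. Cd36, a scavenger receptor of macrophages, rose from 0.070 ± 0.023 to 3.38 ± 1.12 FPKM (log2 5.31 ± 0.48, adjusted p = 1.3e-05), and Scarb1, the receptor for high-density lipoprotein, fell from 30.5 ± 3.48 to 7.82 ± 0.93 FPKM (log2 -2.18 ± 0.15, adjusted p = 5.9e-06). Of 12 storage and transport genes, Lipa, the lysosomal acid lipase, rose (1.54 ± 0.18, adjusted p = 6.0e-05), as did 1 other gene, and Soat2, which esterifies cholesterol, fell from 6.38 ± 2.38 to 0.42 ± 0.17 FPKM (log2 -4.12 ± 0.38, adjusted p = 1.5e-05). Gramd1b, a carrier of plasma membrane cholesterol, stood at -0.93 ± 0.22 (adjusted p = 0.0044) in the combination and fell with FK506 by 1.10 ± 0.22 (adjusted p = 0.005), a call lost without anti-CD3 library 3 (-0.93). Of 7 other ABCA and ABCG transporters 3 rose and none fell, and each of the 3 was low. Of 6 other lysophospholipid acyltransferases 1 rose and 2 fell. Mboat1 among them fell by 1.23 ± 0.14 (adjusted p = 5.0e-05), a call lost with limma on log2(FPKM + 1) (-0.97). Lpcat1 stood at 0.45 ± 0.11 (adjusted p = 0.0059), which is under 2-fold.

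**Figure D4:**
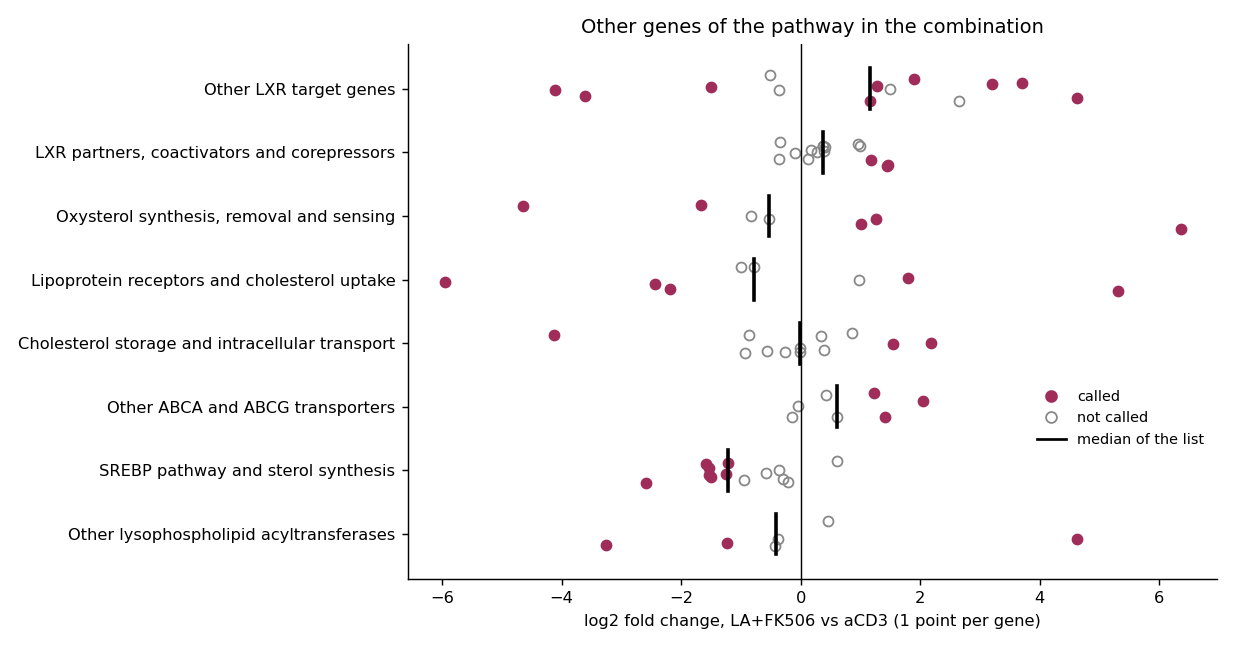
Log2 fold change in the combination against anti-CD3 of the other pathway genes, 1 point per gene (edgeR), filled where called and open where not, with the median of each list as a bar. In this plot 3 genes are left out because 1 of the 2 groups held no counts; the SREBP and sterol synthesis genes have a median of -1.22 and the other LXR targets spread from below 0 to above 4.

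Among 12221 genes with a mean of at least 1 FPKM, those whose log2(FPKM + 1) followed each member most closely over the 12 libraries were listed as a description. The 12 points share 4 treatments, so high values of Pearson's r are common. For Abca1 they were Zfp189 (0.93), Fam53c (0.92) and Cept1 (0.91), and for Abcg1 Gcc1 (0.94), Tagap1 (0.94) and Slain1 (0.94). For Nr1h2 they were Ubxn6 (0.92), Fbxo6 (0.91) and Gm10499 (0.91). For Mylip they were Dcun1d2 (0.99) and Cutc (0.98), for Srebf1 As3mt, Pmm1 and Aldh7a1 (each 0.97), and for Lpcat3 Psmd7 (0.98), Rcl1 (0.98) and Uqcrfs1 (0.97). No member was among the closest genes of another, and the highest r between 2 members was 0.77 for Srebf1 with Lpcat3, while Mylip ran against Srebf1 at -0.94. Nr1h3 was below the limit of 1 FPKM.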

How the data were processed

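The data were 12 RNA-seq libraries in 4 groups, grouped by the sample labels. The submitters' processing notes name bcl2fastq 2.20.0, Trimmomatic, HISAT2 2.1.0, StringTie 2.1.3b and build GRCm38. The authors deposited whole-number read counts per gene without normalization, and FPKM values scaled to transcript length and depth. The TPM values the authors deposited in 12 columns were not used. The study's methods name quantile normalization, and whether the FPKM carry it is not shown here.

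edgeR 4.0.16 (R 4.3.3) was fitted to these counts with TMM factors and a mean for each group, keeping the 23585 genes with reads in 3 or more libraries. The methods give a one-way analysis of variance for the study at large and name no model for counts. P-values were adjusted by Benjamini-Hochberg. Standard errors are the log2 fold change over the square root of F. On simulated counts edgeR recovered 145 of 200 changed genes among 23237, with 3 others called, for the combination against anti-CD3. That simulation applied no fold limit, and changed only genes above a floor of mean counts, each by more than 2-fold. Its figures therefore do not describe the 2-fold rule used for the calls, or genes with few counts. Alternatives were DESeq2 1.42.0, limma 3.58.1 on log2(FPKM + 1) and log2(FPKM + 0.1), no TMM, other filters, the replicate block, the 6 libraries compared and each library left out. No 2 libraries of a group agreed within counting error (chi-square over its degrees of freedom, lowest 4.52).

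Deviations from the group means of same-numbered libraries correlated at 0.30 to 0.52 between anti-CD3 and L. acidophilus and at 0.16 to 0.22 between L. acidophilus and the combination, so the numbers were taken as pairs in these 2 comparisons. Only the alternative with the replicate block holds this pairing. The standard errors and calls given without a named setting come from the fit without it. For the other comparisons with anti-CD3 or FK506 used here, at least 1 pair was under 0.1, down to -0.17.

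The members and lists were chosen with earlier results of these data known. Named beside the members were, from each list, up to 4 genes with a mean of at least 1 FPKM called against anti-CD3 in any treatment, by size of change in the combination, and Rxra, Rxrb, Ch25h, Apoe, Srebf2, Insig1 and Lpcat1; and the 3 genes most like each member. Some genes this rule names are not reported here.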

Additional observations from a re-analysis of the deposited data

Results flagged for a closer look

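For 5 of the pathway genes named, the L. acidophilus effect with FK506 present was not the one seen without it (edgeR interaction term, log2 scale, adjusted over 23585 genes). Scd2 departed by -2.23 ± 0.54 (adjusted p = 0.04), Gpr183 by -1.29 ± 0.32 (adjusted p = 0.045), Sqle by -0.93 ± 0.16 (adjusted p = 0.012), Scarb1 by -0.87 ± 0.20 (adjusted p = 0.036) and Lipa by 1.03 ± 0.26 (adjusted p = 0.045). Sqle stayed called with each of the 12 libraries left out, at an adjusted p of at most 0.042. The calls of Gpr183, Lipa, Scarb1 and Scd2 were each lost with at least 9 of the 12 libraries left out in turn, where the adjusted p reached 0.104, 0.107, 0.089 and 0.095. Groups of 3 libraries are too small for a test of single libraries that stand apart.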

How the results depend on the processing

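Depth limits Nr1h3 and Ch25h, with 97 and 140 counts in all over the anti-CD3 libraries. Counts of genes called against anti-CD3 moved by over 1.5 times as follows. In the combination (5797 genes, 4 members) limma on log2(FPKM + 1) gave 2318 and 2, and no fold limit 10209 genes. With FK506 (2491 and 1) limma gave 967 genes, and no fold limit 4483 and 2. With L. acidophilus (44 and 1) DESeq2 gave 439 and 3, filterByExpr 84 and 2, no filter 83 and 2, limma on log2(FPKM + 1) 11 and 0, the replicate block 69 and 2, and the 6 libraries compared 0 and 0. For the combination against FK506 (1754 and 0) limma on log2(FPKM + 1) gave 647 genes, no TMM and limma on log2(FPKM + 0.1) 1 member each, and no fold limit 4508 and 2. Against L. acidophilus (3910 and 2) limma on log2(FPKM + 1) gave 1618 and 1, the 6 libraries 1 member, and no fold limit 7930 and 5. Departures (1025 genes, 0 members) numbered 2379 with DESeq2, 1675 with limma on log2(FPKM + 1) and 1578 with the replicate block. The replicate block changed no other member's call. With 1 library left out, genes and members called ran from 4776 to 5827 and from 3 to 4 in the combination against anti-CD3, 1666 to 2558 and 1 to 1 with FK506, 1 to 169 and 0 to 2 with L. acidophilus, 979 to 1913 and 0 to 1 for the combination against FK506, 3226 to 4052 and 1 to 2 against L. acidophilus, and 332 to 1464 and 0 to 1 for departures. Without TMM the median log2 fold change of all genes in the combination against anti-CD3 was 0.23, not 0.02. For single genes, 3996 of 4165 values kept their side of the threshold, 48 of them uncalled values that changed sign, 95 lost and 74 gained the call, and no called gene reversed. The causes were not tested.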

Other observations

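A few pathway genes fell outside the naming rule because their mean was under 1 FPKM, and are given here as chosen after their values were seen (edgeR, adjusted over all genes, combination against anti-CD3). Vldlr, a lipoprotein receptor, stood at 1.00 ± 0.59 FPKM in anti-CD3 and 0.016 ± 0.015 in the combination, and fell by 5.95 ± 0.89 on the log2 scale (adjusted p = 0.00024). Cyp27a1, which makes the LXR ligand 27-hydroxycholesterol, rose from 0 to 2 counts per library to 54 to 79 counts (adjusted p = 0.0036). The transporters Abca5, Abcg3 and Abcg4 rose by 1.41 ± 0.27, 2.04 ± 0.34 and 1.22 ± 0.37 (adjusted p of 0.0015, 0.00047 and 0.02), with means of at most 1.12 FPKM in any group.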
